A study of Mus musculus with 4 samples.

Results

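The Rab GTPases were followed in dendritic cells of the mouse spleen 1 h after an injection of sheep red blood cells. Members were loci of the expression table whose gene symbol was Rab followed by a number and an optional letter, and whose FPKM (fragments per kilobase of transcript after scaling by library size) was 1 or more in 2 or more of the 4 libraries. Of 57 loci with such a symbol among 30043 loci in the table, 41 reached that level. The level threshold used measured values, and the family was picked out with the large difference in Rab20 already known, so that the choice itself is no evidence of a difference. All mice were C57BL/6 and carried the GPR183 Heterozygote genotype, including the controls, so no wild-type mice are part of the comparison. One group received PBS (100 uL) and the other received sheep red blood cells (SRBC, 1000000000 cells), and the spleens were taken after 1 h. CD4 dendritic cells, sorted as CD11c+ I-Ab+ CD4+ CD8- at a stated purity above 99%, gave 100 ng of RNA per library and 2 libraries per group. The labels give neither age nor sex, nor do they state that each library came from its own mouse. The p-values therefore rest on spread between libraries, which may be technical. The fit takes most of that spread from other loci (28.7 prior against 2 residual degrees of freedom). A p-value or SE thus says little about how far the libraries of a single locus lay apart.

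Rab proteins are small GTPases that sit on the membranes of distinct compartments and switch between a GTP-bound form, which recruits effectors for budding, transport, tethering and fusion, and a GDP-bound form that is withdrawn from the membrane. Guanine nucleotide exchange factors (GEFs) switch them on, GTPase-activating proteins (GAPs) switch them off, and prenylation with escort and recycling factors keeps them in circulation. In dendritic cells they direct phagosome maturation, the delivery of antigen to loading compartments and the transport of receptors to and from the surface.

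After SRBC, Rab20, a Rab of phagosomes and macropinosomes, stood 38.8-fold above its PBS level, the largest ratio among the 41 loci. Rab7, the Rab of late endosomes and lysosomes, and Rab8b, which acts in delivery to the cell surface, were each 3.39-fold higher, and Rab22a and Rab21 of early endosomes were 2.28-fold and 2.09-fold higher. Rab12, Rab10 and Rab1 were also higher. Under 4 rescalings of the libraries Rab21, Rab12 and Rab10 stayed called in 2 and Rab1 in 0. Rab7, Rab8b and Rab22a stayed called in all 4. Rab30, a Golgi Rab, was 2.24-fold lower, and Rab32 and Rab24 were lower by 1.77-fold and 1.64-fold. The other 28 tested members did not pass the test.

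The promoters of the loci at the centre of these differences are shown with the matches to ACGTG or its reverse complement in capitals, a short core that includes the CACGTG palindrome and is known from the binding sites of hypoxia-inducible and E-box factors. Sequences are from RefSeq on GRCm38.p6, 5′ to 3′ on the strand of the gene, from 250 bases before to 50 bases after the annotated start. Rab20 is shown for its ratio, Rab21 and Rab24 because they also hold the palindrome but moved in opposite directions, Rab7 because it has the highest level and its first listed promoter holds the core alone, and Rab8b because neither form is in its window.
Rab20, chr8:11478591-11478890, minus strand: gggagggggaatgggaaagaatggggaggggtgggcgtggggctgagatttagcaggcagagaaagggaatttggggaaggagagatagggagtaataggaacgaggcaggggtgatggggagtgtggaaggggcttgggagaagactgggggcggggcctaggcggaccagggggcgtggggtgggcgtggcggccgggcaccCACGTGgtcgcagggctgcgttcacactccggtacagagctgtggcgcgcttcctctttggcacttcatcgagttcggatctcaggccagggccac
Rab21, chr10:115315542-115315841, minus strand: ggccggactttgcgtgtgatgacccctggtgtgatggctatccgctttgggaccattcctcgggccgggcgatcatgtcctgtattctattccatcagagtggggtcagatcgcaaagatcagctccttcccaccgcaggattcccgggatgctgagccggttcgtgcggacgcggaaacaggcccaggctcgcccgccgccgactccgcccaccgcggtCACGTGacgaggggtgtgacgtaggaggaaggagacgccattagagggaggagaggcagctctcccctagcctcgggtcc
Rab24, chr13:55321931-55322230, minus strand: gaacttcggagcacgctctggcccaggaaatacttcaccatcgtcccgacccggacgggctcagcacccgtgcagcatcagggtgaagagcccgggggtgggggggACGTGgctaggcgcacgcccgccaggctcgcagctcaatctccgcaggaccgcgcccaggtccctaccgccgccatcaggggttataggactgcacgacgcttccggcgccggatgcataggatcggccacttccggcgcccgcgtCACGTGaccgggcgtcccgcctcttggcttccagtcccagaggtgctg
Rab7, chr6:88045221-88045520, minus strand: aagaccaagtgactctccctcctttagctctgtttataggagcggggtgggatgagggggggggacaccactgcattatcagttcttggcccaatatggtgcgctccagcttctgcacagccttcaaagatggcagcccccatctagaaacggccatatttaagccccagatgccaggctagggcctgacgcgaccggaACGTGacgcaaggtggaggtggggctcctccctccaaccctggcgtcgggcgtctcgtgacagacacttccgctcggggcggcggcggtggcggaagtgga
Rab8b, chr9:66919656-66919955, minus strand: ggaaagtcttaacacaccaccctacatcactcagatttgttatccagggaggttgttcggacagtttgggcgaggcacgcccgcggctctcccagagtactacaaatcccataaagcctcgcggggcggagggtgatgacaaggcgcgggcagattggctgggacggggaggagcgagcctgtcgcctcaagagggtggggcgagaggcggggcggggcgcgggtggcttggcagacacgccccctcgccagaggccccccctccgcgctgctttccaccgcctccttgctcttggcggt
The palindrome begins 46 bases before the start of Rab20 and 30 bases before the start of Rab21, and in Rab24 it lies just past the start. The core without the full palindrome begins 51 bases before the start of Rab7 and 144 bases before that of Rab24.

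Searched on both strands, CACGTG was in 5 of the 40 promoters listed for 34 of the members and in 7.15% of 32851 promoters of all genes. The 5 belong to Rab20, Rab21, Rab24, Rab27a and Rab5a. Of these, Rab27a and Rab5a did not pass the test (log2 fold changes 0.26 and -0.07). ACGTG, which lies inside every CACGTG match, was in 10 of the 40 and in 19.6% of all. A loose form of the NF-kB site (3 G, any 5 bases, 2 C) was in 28 of the 40 and in 50.8% of all, TGANTCA, the AP-1 site, in 1 and in 7.81%, and TTCNNNGAA, the STAT site, in 3 and in 8.30%. Promoters of 7 members were not in the table. The 2 sets of promoters differ in CpG, a C followed by a G. The median ratio of observed to expected CpG was 0.74 for the higher members (8 with a promoter), 0.81 for the lower (3) and 0.79 for those not called (23). Rab20 and Rab34 are counted here as higher and Rab39 as lower, although these have no test. The median of the lower is the Rab39 value. Over all promoters the median ratio was 0.38. What this difference adds to the motif counts was not tested, so nothing is read from them. A match describes letters in this window and not binding.

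Before the results, facts on the libraries need stating. Summed FPKM was 377167 to 410321 after PBS and 509007 to 558016 after SRBC, while depth estimated from the lowest steps of the values was about 8320000 to 9440000 fragments. Defining genes of the sort were present, with Itgax at 180 to 253 FPKM and Cd4 at 75.8 to 96.4 FPKM in all libraries, and Cd8a was at 1.2 to 2.63 FPKM. H2-Ab1, which encodes a chain of the I-Ab of the sort, was at 4440 and 3900 FPKM after PBS and at 7750 and 8910 after SRBC, and the genotype gene Gpr183 at 21.9 and 18.6 and then at 70.8 and 73.3, both called higher (limma, adjusted p = 0.042 and 2.4e-07). Of 9 markers of CD4 dendritic cells, H2-Ab1 among them, 3 were higher by the test and 1 lower. Irf4 was at 77.9 and 55.7 FPKM after PBS and at 272 and 316 after SRBC, and Zbtb46 at 38.6 and 47.5 and then at 70.9 and 80.0. Clec4a4, the lower marker, was at 3.68 and 7.76 FPKM and then at 2.11 and 1.55. Xist was at 0.210 and 0.327 FPKM after PBS and at 339 and 306 FPKM after SRBC, and the Y-linked Ddx3y, Eif2s3y, Kdm5d and Uty were at 3.57 to 38.4 FPKM after PBS and at 0 to 0.113 FPKM after SRBC. The PBS libraries therefore carry a male pattern and the SRBC libraries a female pattern, and for every difference below the sex of the mice and the treatment cannot be told apart. Of the 57 Rab loci 4 are on the X chromosome, and Rab9 alone of them reached the level threshold. Summed over the 6 macrophage markers, FPKM was 333 and 364 after PBS and 537 and 656 after SRBC, with 1 of 6 higher by the test (Cd68, at a locus shared with Eif4a1 and Senp3), while Emr1 (Adgre1) was at 44.3 and 54.1 and then at 33.6 and 36.7. The 4 erythroid markers summed to 62.4 and 12.2 FPKM after PBS and to 109 and 188 after SRBC, with 3 of 4 higher, and the neutrophil markers to 56.8 and 5.80 and then to 38.1 and 84.4, with 2 of 3 tested higher. Platelet markers summed to 5.10 and 7.06 and then to 9.45 and 11.0 FPKM, with 1 of 2 tested higher. The 4 markers of CD8 dendritic cells summed to 36.2 and 30.7 FPKM after PBS and to 20.7 and 25.2 after SRBC, with 1 of 4 lower, Clec9a, at 20.7 and 16.1 and then at 10.1 and 12.1. Of the B, T, plasmacytoid and NK cell markers tested 0 were called. The part of these cells in the Rab differences was not tested, and in bulk RNA fewer cells of a type and less RNA per cell cannot be told apart.

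Tests are from limma on log2(FPKM + 1) over 11020 named loci that reached the same level threshold, with Benjamini-Hochberg adjustment over all of them, and a locus is called at an adjusted p below 0.05. Rab20 and Rab34 reached the level threshold through the SRBC libraries alone and Rab39 through the PBS libraries alone. These had to differ and are described without a test. Of the other 38 members 7 were higher (18.4%) and 3 lower (7.89%), where 13.5% of all tested loci were higher and 6.20% lower. Over the 10653 tested loci with a library at 1 FPKM or more in both groups, the set that matches these 38, the shares were 13.1% and 5.66%. With the 3 loci that have no test, 9 of 41 (22.0%) and 4 of 41 (9.76%) would count as higher and lower. Both SRBC libraries lay above both PBS libraries for 15 of the 38 (39.5%, against 34.3% of all tested loci and 34.2% of the matching set), below both for 7 (18.4%, against 24.7% and 23.4%), and overlapped them for 16. Without SRBC replicate 2 the counts among the 38 were 4 higher and 1 lower, and without SRBC replicate 1 or without PBS replicate 1 also 1 lower. The median log2 fold change was 0.15 over the 38 and 0.07 over all tested loci (0.08 over the matching set). In the authors' deposited table, of the 38 members 4 were higher at a q-value below 0.05 and 2 lower, where 8.83% of all tested loci were higher and 3.70% lower, and 8.74% and 3.64% of the matching set. The family is not set apart by these counts.

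**Figure D1:**
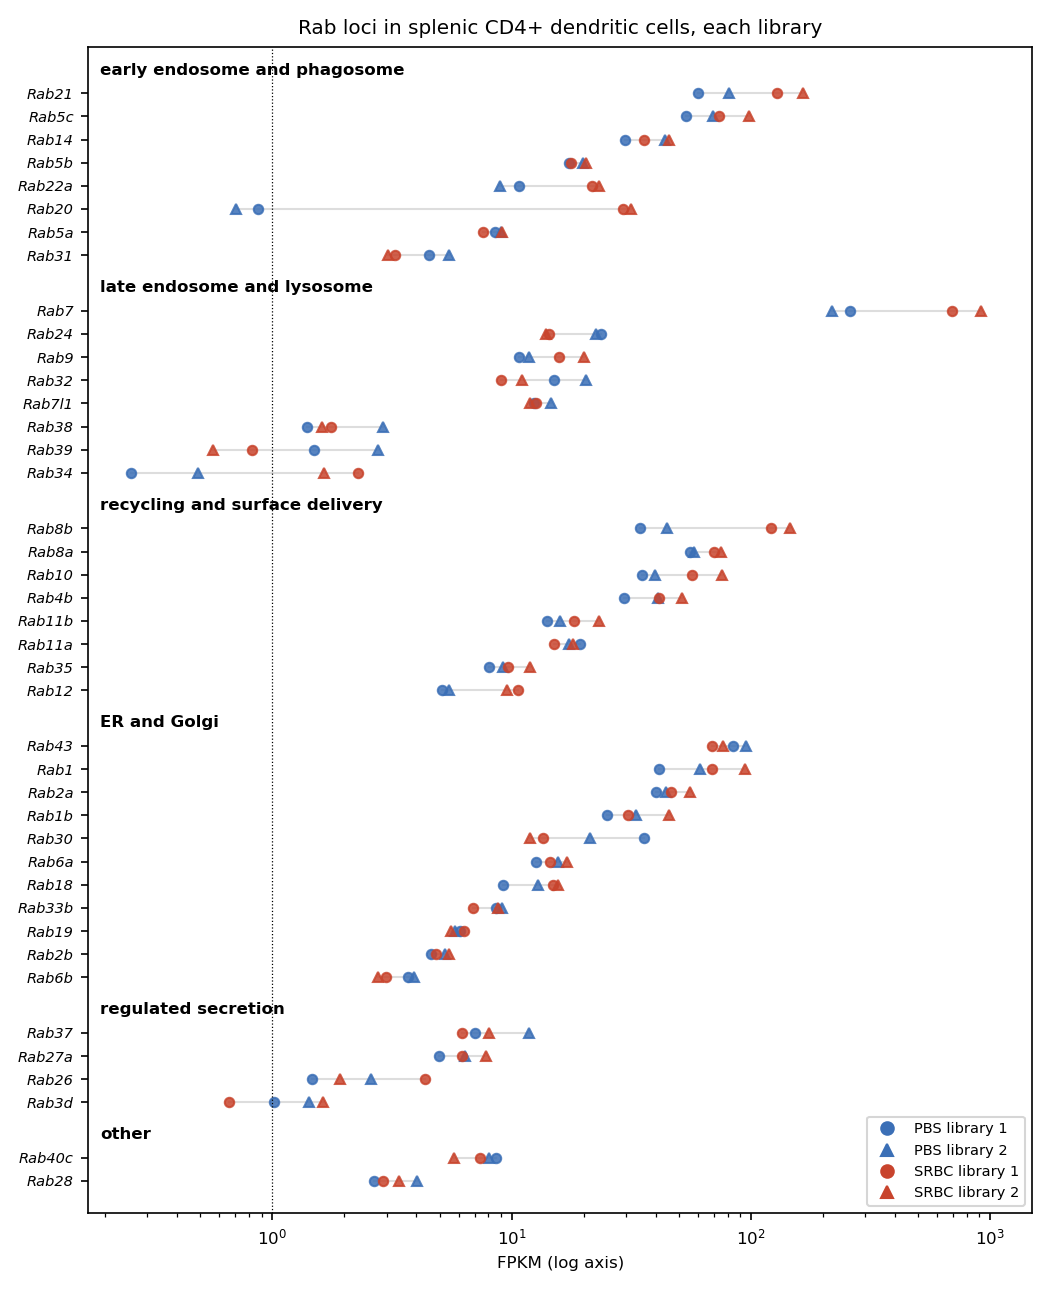
FPKM (log axis) of the 41 Rab loci in each library, grouped by the compartment each is best known for; blue marks PBS, red marks SRBC, and the dotted line marks an FPKM of 1. Rab20 moves from below 1 to about the middle of the family, Rab7 is the highest in every library, and most other loci have red and blue points close together.

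Among Rabs of early endosomes and phagosomes, Rab20 was at 0.866 and 0.703 FPKM in the PBS libraries and at 29.3 and 31.6 FPKM in the SRBC libraries, means of 0.784 ± 0.116 and 30.4 ± 1.67 (SD, n = 2). The groups lay far apart and the libraries within each were close. Rab20 is known from macrophages as a protein of phagosomes and as a gene raised in low oxygen. It was 40th of 41 members in level in both PBS libraries and 13th in both SRBC libraries. The PBS values stood for an estimated 8.2 to 9.2 fragments per library and the SRBC values for 320 to 330, so the PBS level, and with it the ratio, is the less precise side. On the log2(FPKM + 1) scale, which understates the change of a gene this low, the difference was 4.14, and it ran from 3.96 to 5.27 over the 14 alternative settings. The gene lies on the minus strand at chr8:11453518-11478710 (GRCm38, as are all gene positions here).

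Rab21, which acts on early endosomes and in integrin transport, was at 59.9 and 80.9 FPKM after PBS and at 129 and 165 FPKM after SRBC. Both SRBC libraries were above both PBS libraries. The log2 fold change was 1.05 ± 0.23 (SE; limma, adjusted p = 9.3e-04; chr10:115287084-115315594). It was 0.45 after quantile normalization and 0.62 after rescaling to TPM, and neither passed the test. Rab22a, which acts in early endosomes and recycling tubules, was at 10.7 and 8.98 FPKM and then at 21.7 and 23.2 FPKM. Its groups were also separate, with a log2 fold change of 1.12 ± 0.24 (limma, adjusted p = 8.0e-04; chr2:173659760-173707343).

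Its close relative Rab31 was at 4.52 and 5.49 FPKM after PBS and at 3.24 and 3.05 FPKM after SRBC, a log2 difference of -0.53 that did not pass the test, although it was called lower after upper-quartile rescaling (-0.73) and rescaling to TPM (-0.99). Rab22a made up 70.4% and 62.1% of the summed FPKM of this pair after PBS and 87.0% and 88.4% after SRBC. Such a share within a library does not depend on how the libraries are scaled. Rab5c, the most abundant of the Rab5 loci that mark early endosomes, was at 53.8 and 69.4 FPKM and then at 73.7 and 97.9 FPKM, and its log2 fold change of 0.47 missed the threshold (limma, adjusted p = 0.15). Rab5a, Rab5b and Rab14 overlapped between groups. In all, 2 of 7 tested members of this group were higher and 0 lower, with a median log2 fold change of 0.16, where 13.5% of all tested loci were higher, 6.20% lower and the median was 0.07.

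Among Rabs of late endosomes and lysosomes, Rab7 was at 259 and 219 FPKM after PBS and at 697 and 922 FPKM after SRBC, means of 238.8 ± 28.2 and 809.6 ± 158.7 (SD, n = 2). It was the most abundant Rab in every library, and both SRBC libraries lay well above both PBS libraries. Rab7 directs the fusion of late endosomes and phagosomes with lysosomes. Its log2 fold change was 1.75 ± 0.25 (limma, adjusted p = 2.3e-06; chr6:87999106-88045270), between 1.11 and 1.95 over the 14 alternatives. By itself Rab7 held 25.7% and 19.8% of the summed FPKM of the 41 members after PBS and 40.5% and 42.7% after SRBC. That sum was 1007 and 1106 FPKM after PBS and 1723 and 2156 FPKM after SRBC.

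The other called members of this group were lower. Rab32, which acts in the formation of lysosome-related organelles, was at 15.0 and 20.5 FPKM after PBS and at 9.01 and 11.0 FPKM after SRBC. Its groups did not overlap (log2 fold change -0.76 ± 0.25; limma, adjusted p = 0.028; chr10:10545002-10558265). Rab24, known from autophagy, was at 23.7 and 22.6 FPKM and then at 14.3 and 13.9 FPKM. Its libraries agreed closely within each group (log2 fold change -0.68 ± 0.23; limma, adjusted p = 0.035; chr13:55319743-55321946), while its q-value in the authors' deposited table was 0.75. With single libraries left out, Rab32 was not called without PBS replicate 2 (-0.54), SRBC replicate 1 (-0.63) or SRBC replicate 2 (-0.89), and Rab24 without PBS replicate 1 (-0.64), SRBC replicate 1 (-0.70) or SRBC replicate 2 (-0.66).

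Rab39, which acts in phagosomes, was at 1.49 and 2.77 FPKM after PBS and at 0.819 and 0.564 FPKM after SRBC, and Rab34, which acts in lysosome positioning and macropinosomes, was at 0.256 and 0.487 FPKM and then at 2.27 and 1.65 FPKM. Each is low, and the Rab34 values stood for an estimated 3.4 to 30 fragments. Rab9, which returns receptors from late endosomes to the Golgi, was at 10.7 and 11.8 FPKM and then at 15.8 and 20.1 FPKM, and its log2 fold change of 0.62 missed the threshold (limma, adjusted p = 0.068), which it passed with a minimum of 5 FPKM (limma, adjusted p = 0.043). Rab7l1 and Rab38 did not pass the test. In all, 1 of 6 tested members was higher and 2 lower, with a median log2 fold change of -0.16, against the same 13.5%, 6.20% and 0.07 over all tested loci.

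Of the Rabs of recycling and surface delivery, 3 of 8 were higher and 0 lower, with a median log2 fold change of 0.42, and in 7 of the 8 both SRBC libraries lay above both PBS libraries. Over all tested loci 13.5% were higher, 6.20% lower, the median was 0.07 and 34.3% had both SRBC libraries above both PBS libraries, and with 8 loci chosen knowing earlier results nothing is read from the excess. Rab8b was at 34.4 and 44.5 FPKM after PBS and at 122 and 146 FPKM after SRBC. Its groups lay far apart (log2 fold change 1.74 ± 0.22; limma, adjusted p = 4.7e-07; chr9:66843664-66919687), and it went from 10th and 7th in level among the members to 3rd in both SRBC libraries. Its close relative Rab8a was at 55.6 and 57.9 FPKM and then at 70.4 and 75.1 FPKM, a log2 fold change of 0.35 with a 95% interval from -0.09 to 0.79.

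Rab8b therefore held 38.2% and 43.5% of the summed FPKM of the pair after PBS and 63.4% and 66.0% after SRBC. Rab10, which carries receptors and transporters to the surface, was at 35.1 and 39.7 FPKM after PBS and at 56.9 and 75.6 FPKM after SRBC. Its groups did not overlap, and the log2 fold change was 0.80 ± 0.22 (limma, adjusted p = 0.010; chr12:3247428-3309969). The q-value of Rab10 in the authors' deposited table was 0.24. Rab12, which acts in recycling endosomes, was at 5.10 and 5.48 FPKM and then at 10.6 and 9.57 FPKM. Both SRBC libraries were higher (log2 fold change 0.82 ± 0.26; limma, adjusted p = 0.023; chr17:66494512-66519729). The authors' q-value for Rab12 was 0.16. Rab10 was not called without PBS replicate 1 (0.71) or SRBC replicate 2 (0.60), and Rab12 not without SRBC replicate 1 (0.75) or SRBC replicate 2 (0.88). Rab4b, Rab11a, Rab11b and Rab35, which act in recycling, did not pass the test. Rab11b held 41.9% and 47.8% of the summed FPKM of Rab11a and Rab11b after PBS and 54.8% and 56.3% after SRBC.

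**Figure D2:**
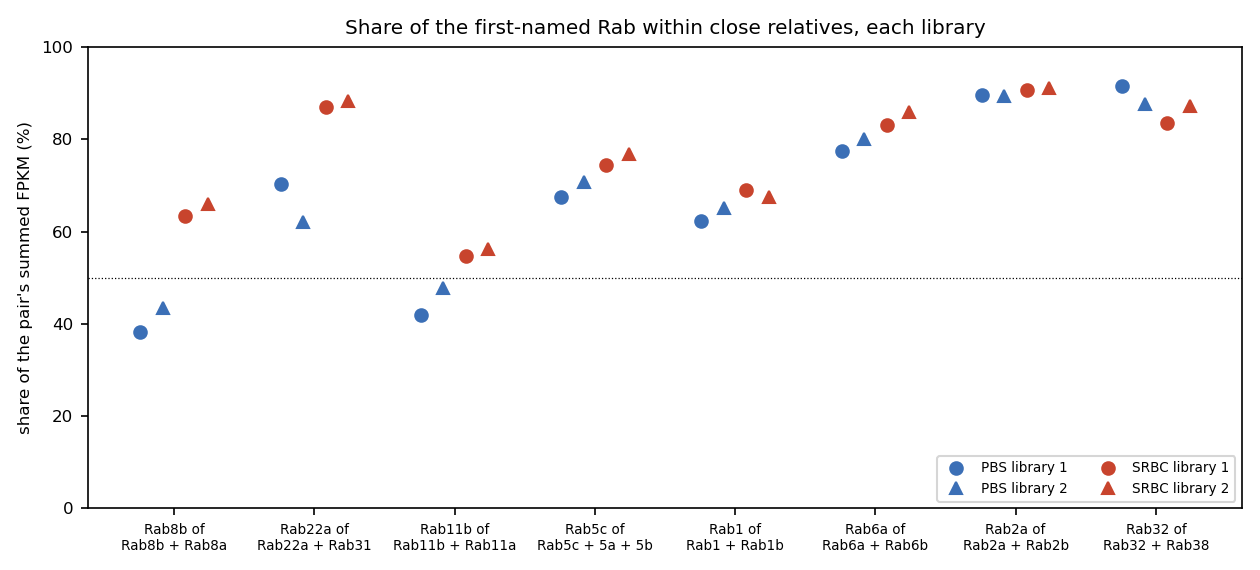
Share (%) of the first-named Rab in the summed FPKM of close relatives, one point per library, with PBS in blue and SRBC in red and a dotted line at equal shares for a pair. Rab8b goes from 38.2% and 43.5% to 63.4% and 66.0% and Rab22a from 70.4% and 62.1% to 87.0% and 88.4%, while Rab2a stays between 89.3% and 91.1%.

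Among the 11 Rabs of the endoplasmic reticulum and Golgi, 1 was higher and 1 lower, with a median log2 fold change of 0.05 (13.5%, 6.20% and 0.07 over all tested loci). Rab30, a Golgi Rab, was at 35.7 and 21.2 FPKM after PBS and at 13.5 and 11.9 FPKM after SRBC, means of 28.5 ± 10.3 and 12.7 ± 1.12 (SD, n = 2). The groups did not overlap, but the PBS libraries were far apart. The log2 fold change was -1.06 ± 0.25 (limma, adjusted p = 0.0022; chr7:92741603-92844535), and without PBS replicate 1 it was -0.70 and no longer called. Rab1, which moves cargo from the endoplasmic reticulum to the Golgi, was at 41.3 and 61.4 FPKM and then at 68.9 and 94.4 FPKM.

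The Rab1 groups lay close together (log2 fold change 0.67 ± 0.23; limma, adjusted p = 0.041), and the call was lost under 9 of the 14 alternatives, among them without PBS replicate 1 (0.39) and without SRBC replicate 2 (0.44). In the authors' deposited table Rab1 had a q-value of 0.17. This symbol is an older name shared by more than one annotated gene and was given no coordinates. Rab43, a Golgi Rab that in mice is known for cross-presentation by CD8+ dendritic cells, was at 84.5 and 95.8 FPKM after PBS and at 68.9 and 76.5 FPKM after SRBC. It was second in level among the members after PBS, and its log2 difference of -0.31 did not pass the test, although it was called lower after upper-quartile rescaling (-0.55), quantile normalization (-0.86) and rescaling to TPM (-0.74). Rab43 lies 187 kb from Rab7 on chromosome 6, and the ratio of Rab7 to Rab43 was 3.06 and 2.29 after PBS and 10.1 and 12.1 after SRBC. Rab1b, Rab2a, Rab2b, Rab6a, Rab6b, Rab18, Rab19 and Rab33b did not pass the test.

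Of the 4 Rabs of regulated secretion, Rab3d, Rab26, Rab27a and Rab37, 0 were called and all overlapped between groups. Over all tested loci 19.7% were called, 34.3% had both SRBC libraries above both PBS libraries and 24.7% had both below. Rab27a, which acts in secretory lysosomes, was at 4.97 and 6.37 FPKM after PBS and at 6.18 and 7.80 FPKM after SRBC. Rab28 and Rab40c, placed in no compartment group, did not pass the test either. Over the 28 tested members that were not called, 95% intervals of the log2 fold change reached from -1.09 to 1.11, and for 25 of them the whole interval lay within 1 log2 unit of 0. The smallest adjusted p among them was 0.068 (limma).

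**Figure D3:**
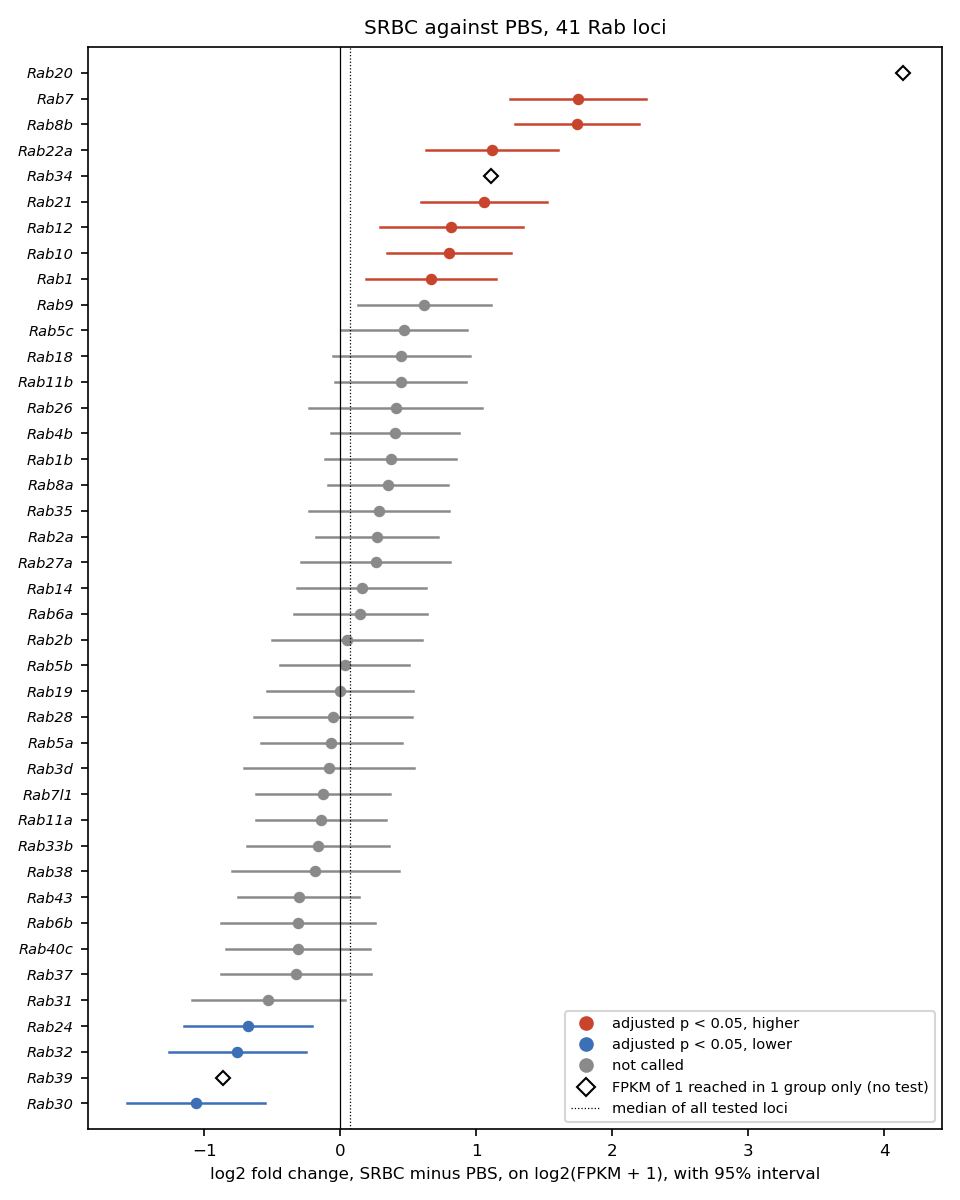
Log2 fold change of SRBC over PBS on the log2(FPKM + 1) scale for the 41 Rab loci, with 95% intervals; red and blue mark loci called higher and lower at an adjusted p below 0.05, grey marks the others, open diamonds mark the 3 loci with no test, and the dotted line is the median of all tested loci. Rab20 stands at 4.14, Rab7 and Rab8b follow at 1.75 and 1.74, and Rab30 is lowest at -1.06.

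Of the 16 loci below the level threshold, 2 (Rab15 and Rab9b) were listed at 0 in every library and 12 at 0 in at least 1. Just below it, Rab3a was at 0.821, 1.99, 0.440 and 0.410 FPKM and Rab23 at 0.634, 0.908, 0.457 and 1.03 FPKM, in the order PBS 1, PBS 2, SRBC 1 and SRBC 2. Just above it, Rab3d was at 1.01, 1.42, 0.659 and 1.62 FPKM, and Rab39 at the values given for it. In the others, Rab4a, Rab13, Rab17, Rab25, Rab27b, Rab33a, Rab36, Rab39b, Rab3b, Rab3c, Rab40b and Rab44 among them, no library was above 0.565 FPKM.

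What the members share beyond their name was looked at as a description. Across the 41 loci, which include those with no test, Spearman's correlation of the log2 fold change with mean level was 0.40. With gene length it was -0.01 over the 40 loci with a matched position. The loci share all 4 libraries and are not independent. The mean level takes in the SRBC values that also enter the fold change, and the log2 scale used understates changes of low loci. Over all tested loci the median log2 fold change was also higher with a minimum of 5 FPKM (0.19) than at the level threshold (0.07). Nothing about the family is therefore read from the 0.40. The ratio of observed to expected CpG in the promoter correlated with the log2 fold change at -0.13 over 34 loci. Paralogues such as Rab8a and Rab8b share sequence, and how reads that match both were divided is not stated in the labels or headers; their shares are uncertain by that amount.

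The proteins that switch Rabs on and off, modify them or act below them were counted in 5 lists. Of 123 tested genes 21 were higher (17.1%) and 4 lower (3.25%), with a median log2 fold change of 0.04, against 13.5%, 6.20% and 0.07 for all tested loci. The values of single genes follow.

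Of 31 GEFs 8 were higher (25.8%) and 1 lower (3.23%), where 13.5% of all tested loci were higher and 6.20% lower. The lists were chosen knowing earlier results, so nothing is read from the excess. Dennd4a, an exchange factor that acts on Rab10, was at 25.8 and 35 FPKM after PBS and at 177 and 179 FPKM after SRBC. It was 5.86-fold higher with no overlap (log2 fold change 2.53 ± 0.22; limma, adjusted p = 3.3e-10). Its relative Dennd4b was 2.85-fold higher (31.2 and 33.1, then 91.2 and 91.9 FPKM; limma, adjusted p = 4.5e-06). Mon1b, part of the exchange factor of Rab7, was 2.72-fold higher at a locus shared with Syce1l, and Smcr8, a DENN-domain protein of autophagy, was 2.41-fold higher. Dennd5a was 2.08-fold higher and Madd, which acts on Rab3 and Rab27, 2.05-fold higher, and neither was called after rescaling to TPM (log2 fold changes 0.63 and 0.58). Rabgef1, the exchange factor of Rab5, Rab21 and Rab22a, was at 8.55 and 7.29 FPKM and then at 13.3 and 15.6 FPKM, 1.83-fold higher (limma, adjusted p = 0.021). Rab3ip, an exchange factor of Rab8, was 2.16-fold lower (5.81 and 4.87, then 2.22 and 2.73 FPKM; limma, adjusted p = 0.025). Rab3ip (-0.97 to -0.76) lost the call without PBS replicate 1 or either SRBC library, and Rabgef1 (0.69 to 0.90) without PBS replicate 2 or either SRBC library, the values being log2 fold changes. After quantile normalization Rab3ip (-0.79) and Rabgef1 (0.69) were not called, and Rabgef1 was not after upper-quartile rescaling (0.57) or rescaling to TPM (0.41).

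Of 36 GAPs 6 were higher (16.7%) and 1 lower (2.78%), against 13.5% and 6.20% of all tested loci. Tbc1d4, which acts on Rab10 and its relatives, was at 150 and 128 FPKM after PBS and at 423 and 383 FPKM after SRBC, 2.90-fold higher (limma, adjusted p = 6.1e-06). Tbc1d10a was 2.30-fold and Tbc1d8 1.93-fold higher, and Tbc1d10a was not called without SRBC replicate 2 (log2 fold change 0.91) or after rescaling to TPM (0.72), nor Tbc1d8 after quantile normalization (0.38) or rescaling to TPM (0.50). Tbc1d10c was at 46.7 and 66.3 FPKM and then at 20.2 and 19.7 FPKM, 2.83-fold lower (limma, adjusted p = 1.9e-05). None of these groups overlapped.

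Of 7 prenylation and recycling factors 1 was higher, Rabggtb, the catalytic subunit of the Rab geranylgeranyl transferase, by 1.82-fold at a locus that also holds small nucleolar RNA genes, a call lost without PBS replicate 1 (log2 fold change 0.60) or SRBC replicate 2 (0.76), after quantile normalization (0.58) and after rescaling to TPM (0.44). Gdi2, which holds Rabs in the cytosol, was at 145 and 203 FPKM after PBS and at 176 and 229 FPKM after SRBC and did not pass the test. Of 5 Rab-like GTPases 0 were called. The share called higher was 14.3% for the 7 prenylation and recycling factors and 13.5% for all tested loci, of which 19.7% were called in either direction.

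Of 44 effectors 6 were higher (13.6%) and 2 lower (4.55%), close to the 13.5% and 6.20% of all tested loci. Rilpl2, which binds phosphorylated Rab8 and Rab10, was at 18.6 and 12.7 FPKM after PBS and at 148 and 196 FPKM after SRBC, 11.0-fold higher (log2 fold change 3.38 ± 0.23; limma, adjusted p = 1.4e-12). Optn, an autophagy receptor that binds Rab8, was at 0.838 and 1.24 FPKM and then at 13.2 and 12.8 FPKM, 12.5-fold higher (limma, adjusted p = 3.0e-09). In both genes the groups lay far apart, and for Optn the PBS level was near 1 FPKM. Plin3, a lipid droplet protein that binds Rab9, was 3.09-fold higher at a locus shared with Ticam1, Rab11fip1, an effector of Rab11, 2.58-fold higher, and Vps18, a subunit of the tethering complexes of endosomes and lysosomes, 2.1-fold higher. Exoc6, a subunit of the exocyst, was 1.88-fold lower. Lrrk2, a kinase that phosphorylates Rab8, Rab10 and Rab12, was at 32.8 and 38.0 FPKM and then at 21.4 and 23.4 FPKM, 1.58-fold lower (limma, adjusted p = 0.043). Calls were lost for Vps18 without PBS replicate 2 (0.71) and after upper-quartile rescaling (0.81), quantile normalization (0.88) and rescaling to TPM (0.66), for Exoc6 without PBS replicate 2 (-0.70) or SRBC replicate 1 (-0.85), and for Lrrk2 without PBS replicate 2 (-0.53), SRBC replicate 1 (-0.57) or SRBC replicate 2 (-0.70). Rabgef1, Exoc6 and Lrrk2 were chosen for description after their values were seen.

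**Figure D4:**
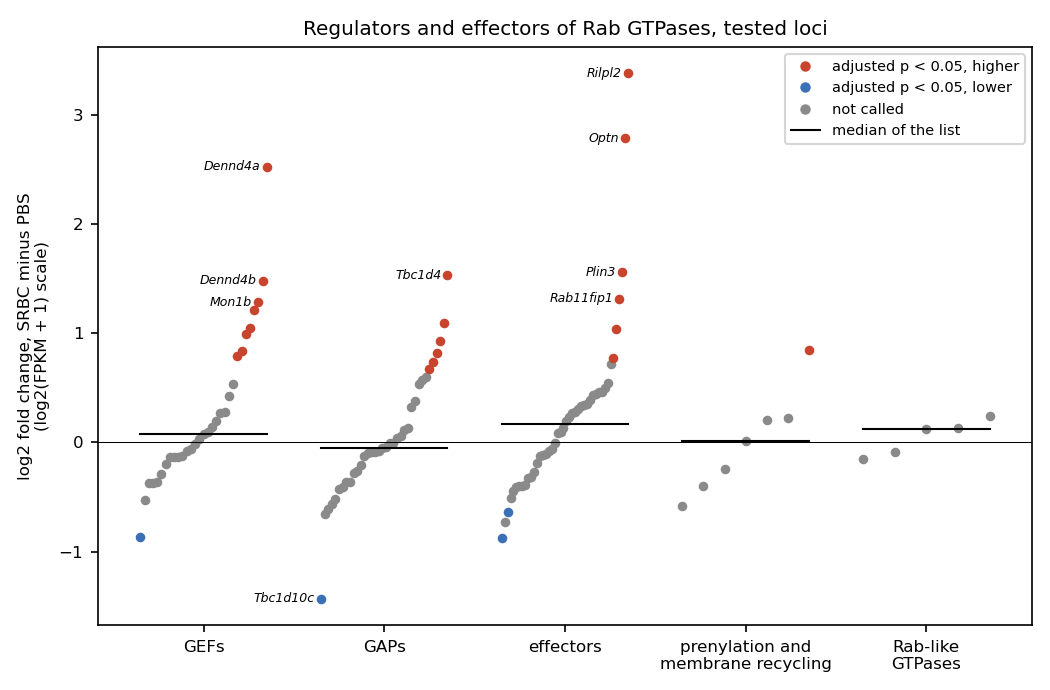
Log2 fold change of SRBC over PBS for each tested gene of 5 lists of Rab regulators and effectors, one point per gene in rank order within its list; red and blue mark genes called higher and lower and the bar marks the list's median. Medians lie between -0.05 and 0.17, while Rilpl2, Optn and Dennd4a stand far above the rest of their lists.

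Rescaling the libraries changed how many Rab loci were called on each side. The median log2 fold change of all tested loci was 0.07 as deposited, -0.01 after median-of-ratios rescaling, -0.14 after upper-quartile rescaling, -0.04 after quantile normalization and -0.33 after rescaling to TPM, and the median of the 38 members was 0.15, 0.06, -0.09, -0.03 and -0.27. Of calls among the 38, 70.0% were higher as deposited, 66.7% after median-of-ratios rescaling, 50% after upper-quartile rescaling or quantile normalization and 37.5% after rescaling to TPM. Over all tested loci the share was 68.5% as deposited, 58.3% after median-of-ratios rescaling, 41.9% after upper-quartile rescaling, 49.8% after quantile normalization and 27.6% after rescaling to TPM, so it fell there as well. Rab7, Rab8b and Rab22a were called higher, and Rab24, Rab30 and Rab32 lower, under each of the 4 rescalings. Rab21, Rab10 and Rab12 were called under 2 of the 4 and Rab1 under 0.

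**Figure D5:**
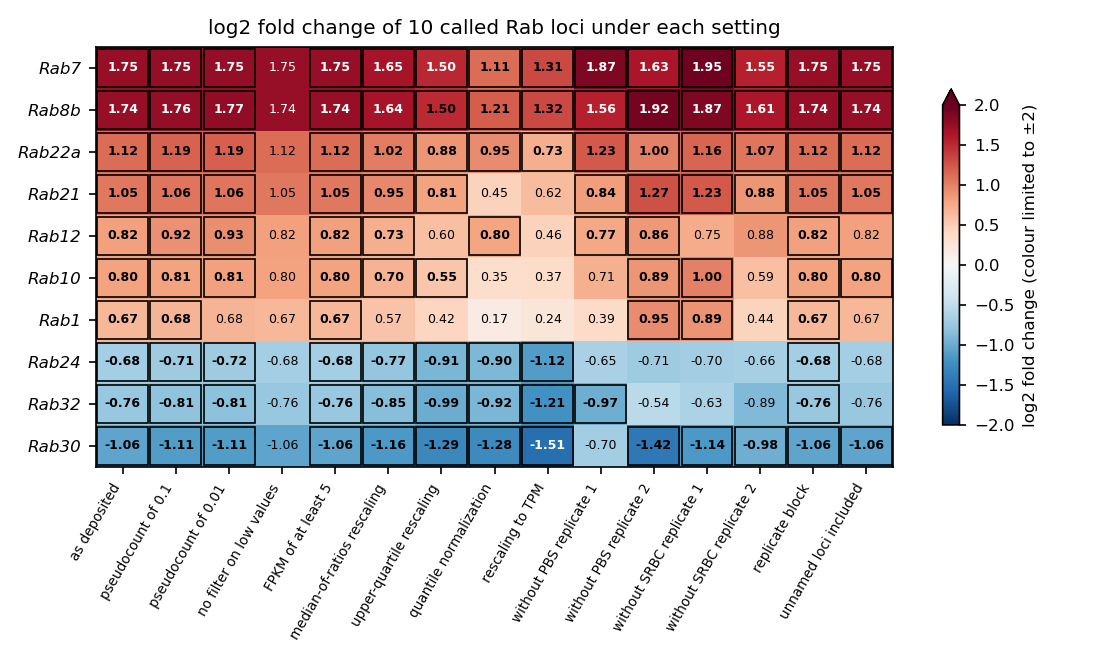
Log2 fold change of the 10 called Rab loci under the deposited scale and 14 alternatives, coloured from blue (lower) to red (higher), with frames and bold type where the adjusted p was below 0.05. No value changes sign, Rab7 and Rab8b are framed in every column but the one with no filter on low values, and Rab1 loses its frame in 9 of 14.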

How the data were processed

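RNA from splenic CD4 dendritic cells was sequenced, 2 libraries after PBS and 2 after SRBC. The authors deposited FPKM per locus and library and the q-value (adjusted p-value) of their own comparison, per the file headers. CASAVA, TopHat2 2.0.8b, Cufflinks 2.1.1 and the mm10 build were used, per the submitters' processing notes. The annotation, library scaling, strandedness and division of reads shared by paralogues: not given in the sources used here. Reads of overlapping or antisense genes therefore cannot be told apart. Value columns are named CTRL or IMM with a number. IMM is also in the titles of the SRBC libraries. The titles of the PBS libraries hold HET and not CTRL. CTRL columns were matched to them because CTRL is described as heterozygous control cells and the PBS mice are labelled as controls.

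Named loci at 1 FPKM or more in 2 or more of the 4 libraries were fitted with limma 3.58.1 in R 4.3.3 (eBayes with trend) on log2(FPKM + 1), two-sided, with no covariates; 2 residual degrees of freedom were joined by 28.7 prior ones. The smallest two-sided exact permutation p for 2 against 2 libraries is 0.33, so none is given. The estimated depth assumes fragments of 150 bases; intervals derive from the fit. The procedure was run on simulated independent normal values drawn with the fit's own variances. That run checks the code alone, since library scaling, effects shared by a library and the sex of the mice were not simulated.

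Members, roles, regulator lists and motifs were chosen with earlier results of these data known. Named are all called members, the most abundant, those next to the level threshold and, per regulator list, up to 4 genes with the smallest p and any others called with at least a 2-fold change; some genes of these lists are counted but not reported here by name. Positions are from GENCODE for GRCm38 (mm10), matched by symbol for 56 of 57 loci. Alternatives changed the pseudocount, filter, scaling, libraries, replicate block and inclusion of unnamed loci.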

Additional observations from a re-analysis of the deposited data

How the results depend on the processing

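As deposited, 1488 loci were higher and 683 lower, with 7 and 3 among the 38 Rab members and 21 and 4 among the regulators. With no filter on low values these counts were 83 and 34, 0 and 0, and 1 and 0 respectively; 23657 loci were then tested. Quantile normalization gave 922 loci higher, 4 Rab members higher, and 13 regulators higher and 10 lower. Rescaling to TPM gave 629 and 1648 loci, 3 and 5 Rab members, and 9 and 20 regulators. Upper-quartile rescaling gave 1417 loci, 5 Rab members and 16 regulators lower, and median-of-ratios rescaling 11 regulators lower. With unnamed loci included, 1 Rab member and 2 regulators were lower. Leaving out 1 library at a time gave 746 to 1641 loci higher and 273 to 993 lower, 4 to 7 Rab members higher and 1 to 2 lower, and 13 to 22 regulators higher and 1 to 6 lower; a group left with a lone library is assumed to vary like the other. The fewest higher came without SRBC replicate 2. The replicate numbers do not pair the libraries (correlation of same-numbered deviations 0.0516); with the replicate block 9 Rab members were higher and 3 lower, of 1684 and 620 loci, Rab5c and Rab9 being the added ones (limma, adjusted p = 0.049 and 0.041). Of the 10 called Rab members 0 changed sign under any alternative; of the 28 not called, 18 had both signs over the alternatives, Rab5c (-0.03 to 0.67) and Rab8a (-0.14 to 0.40) among them. The cause of these shifts was not tested. With 2 libraries per group and a median SE of 0.26 on the log2 scale, small differences were not detectable.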
